A study of Mus musculus with 24 samples.

Results

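The lymphomas described here were the 7 with the highest and the 7 with the lowest transcript output of p53 among 21 thymic lymphomas. They were chosen by measured values: for each lymphoma a p53 score was taken as the mean of log2(CPM + 1) over 6 p53 target genes, Cdkn1a, Mdm2, Ccng1, Zmat3, Eda2r and Phlda3, where CPM is the count scaled to a library total of 1e+06. The p53-high group held lymphomas 22, 21, 30, 12, 10, 14 and 9, and the p53-low group held lymphomas 4, 34, 31, 7, 2, 32 and 20. The 7 lymphomas between them were left out of the comparison, and 3 libraries of normal thymus served as the reference outside the lymphomas, so that 14 of the 24 libraries of the study entered the main comparison. Because the score chose the groups, no test of the 6 score genes is read as a result, and any calls of them are counted apart.

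All lymphomas arose in female B6C3F1 mice, a hybrid strain, that had been given whole-body carbon ions, heavy charged particles, in 4 weekly doses of 1.6 Gy from 4 to 5 weeks of age. Both groups therefore shared strain, sex, agent and dose. The 3 thymus libraries are normal by title but bear the irradiation tag too, together with an unexplained "7W". RNA was taken from suspensions of lymphoma cells or thymocytes. Nothing states that the lymphomas are of separate animals, and the p-values below rest on the spread between libraries. Ikzf1 encodes a zinc-finger regulator of lymphocyte development. The authors' filtered counts come in sets named for lymphomas with and without an Ikzf1 mutation. By these names, 4 of 7 p53-high and 3 of 7 p53-low lymphomas carried one (Fisher's exact test, two-sided, p = 1). Total counts were 15 to 36.6 M in p53-high lymphomas, 16 to 30.8 M in p53-low lymphomas and 24.5 to 27.5 M in thymus, where M is 1e+06.

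p53, encoded by Trp53, is a transcription factor that is held at a low level by the ubiquitin ligase Mdm2 and is stabilised by DNA damage or by the oncogene sensor p19Arf, a product of Cdkn2a. Stabilised p53 binds pairs of a decamer motif near its target genes and raises transcripts that halt the cell cycle, repair DNA, start apoptosis and feed back on p53 itself. In thymocytes this response is known to be strong after irradiation, and mice that lack p53 develop thymic lymphomas.

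The binding motif can be read in the promoters of score genes and of other targets measured below. In RefSeq promoters of GRCm38.p6, from 250 bases before to 50 bases after the gene start, 5 of the 6 score genes and 70 of 81 other target genes had an entry. The p53 decamer consensus, which reads the same on both strands, stood in 3 of 5 score genes (60%), in 17 of 70 other targets (24.3%) and in 2582 of 27025 promoters of all symbols (9.55%). The stretches below are 5′ to 3′ on the strand of the gene, and the decamer is in capitals. Only exact matches to the consensus were sought, so a decamer with a mismatch stays in small letters. They show the motif in 3 score genes, in the apoptosis genes Bax and Aen and in the p53 phosphatase gene Ppm1d.
Cdkn1a, chr17:29090881-29090962, plus strand: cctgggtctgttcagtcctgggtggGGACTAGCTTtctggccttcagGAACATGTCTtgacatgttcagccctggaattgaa
Mdm2, chr10:117710910-117710969, minus strand: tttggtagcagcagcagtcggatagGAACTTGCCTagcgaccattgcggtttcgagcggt
Ccng1, chr11:40755437-40755496, minus strand: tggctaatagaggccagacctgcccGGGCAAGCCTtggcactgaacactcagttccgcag
Bax, chr7:45467065-45467124, minus strand: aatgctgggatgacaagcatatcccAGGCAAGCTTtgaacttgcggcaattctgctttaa
Aen, chr7:78895912-78895971, plus strand: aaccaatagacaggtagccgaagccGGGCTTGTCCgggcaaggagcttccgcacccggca
Ppm1d, chr11:85311097-85311156, plus strand: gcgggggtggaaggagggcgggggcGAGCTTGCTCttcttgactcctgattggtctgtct
Only the Cdkn1a window among those of the score genes held 2 decamers within 13 bases of each other, here 12 bases apart, an arrangement found in 0.074% of all promoters. Of the 70 other targets with an entry, 0 held such a pair. A match describes these letters and does not show binding, nor that the marked pair in Cdkn1a is the one p53 uses. The genes shown did not share a behaviour between the groups, as their values below show: Cdkn1a supplied the largest share of the score difference among the 6 genes, and the levels of Mdm2 and Ppm1d overlapped almost fully.

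The score ran from 5.93 in lymphoma 22 to 3.61 in lymphoma 20. It averaged 5.04 ± 0.51 in p53-high and 3.89 ± 0.22 in p53-low lymphomas (mean ± SD, n = 7 each), against 3.82 to 3.87 in the 3 thymus libraries. All 7 p53-high lymphomas therefore lay above thymus, and 4 of the 7 p53-low lymphomas did as well, at 3.98 to 4.22. The upper boundary cut through a dense stretch: lymphoma 9, the lowest of the p53-high group, had 4.47, only 0.0111 above lymphoma 15, which was left out. Lymphoma 4, the highest of the p53-low group, had 4.22 and lay 0.146 below lymphoma 35.

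**Figure D1:**
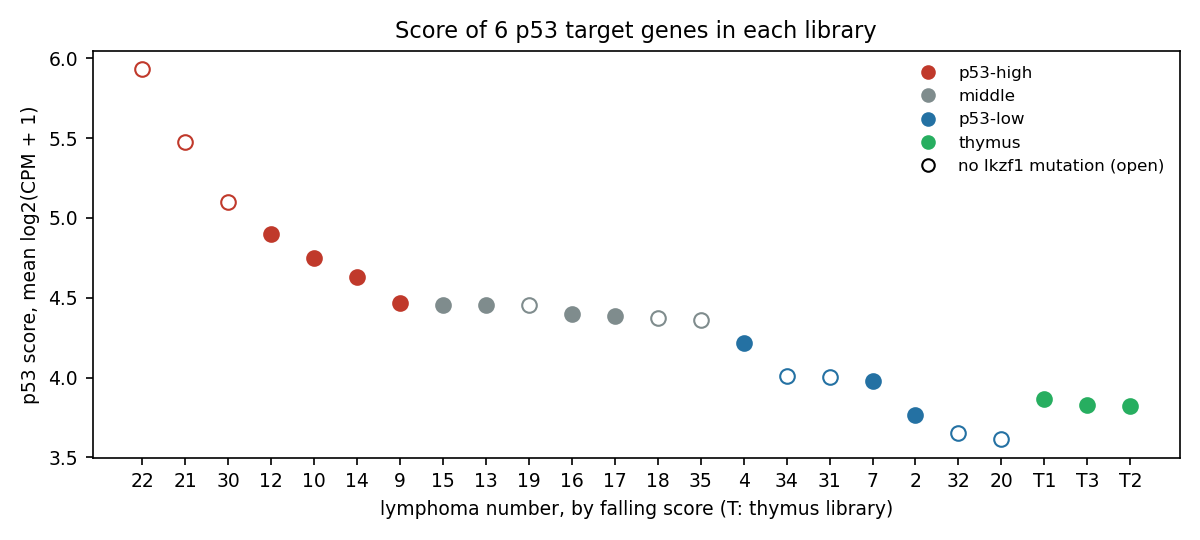
The p53 score of each library (mean log2(CPM + 1) of 6 target genes, y axis) in order of falling score, with thymus on the right. Filled symbols mark lymphomas with an Ikzf1 mutation and all thymus libraries, and open symbols lymphomas without one. The 3 highest scores, 5.93, 5.47 and 5.10, stand above a gradual slope, and the thymus scores of 3.82 to 3.87 lie within the p53-low range of 3.61 to 4.22.

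Cdkn1a, which encodes the cell cycle inhibitor p21, supplied 31.6% of the score difference between the groups. It had 4.65 to 48.3 CPM in p53-high lymphomas (median 26.0), 1.35 to 12.6 CPM in p53-low lymphomas (median 2.56) and 3.02 to 3.33 CPM in thymus. The groups overlapped, because lymphoma 10 had 4.65 CPM and the p53-low lymphomas 7 and 34 had 7.71 and 12.6 CPM. Of the p53-low lymphomas, 5 lay below every thymus library.

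Phlda3, a p53-induced repressor of Akt, was the 1 score gene whose groups did not overlap on plain CPM, by a narrow margin that was lost once CPM was scaled by edgeR's TMM factors. It had 7.35 to 23.8 CPM in p53-high lymphomas (median 12.9) and 2.10 to 7.23 CPM in p53-low lymphomas (median 3.56), against 2.33 to 2.72 CPM in thymus. It supplied 22.2% of the score difference. Eda2r, a member of the TNF receptor family, supplied 15.9% through a few lymphomas. It exceeded 1 CPM only in lymphomas 22, 10, 21 and 30, with 8.63, 3.12, 1.53 and 1.51 CPM. The other 3 p53-high lymphomas had at most 0.125 CPM, all p53-low lymphomas at most 0.198 CPM and thymus at most 0.0815 CPM.

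Zmat3, which encodes an RNA-binding regulator of splicing, had 39.3 to 115 CPM in p53-high and 16.2 to 54.4 CPM in p53-low lymphomas, against 25.0 to 29.8 CPM in thymus. Ccng1, which encodes cyclin G1, a recruiter of phosphatase to Mdm2, had 198 to 440 CPM in p53-high and 91.5 to 237 CPM in p53-low lymphomas, against 119 to 142 CPM in thymus. All p53-high lymphomas exceeded thymus in both genes, while p53-low lymphomas lay above, within and below its range.

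Mdm2 hardly differed between the groups. It had 93.5 to 147 CPM in p53-high lymphomas (median 111) and 72.6 to 135 CPM in p53-low lymphomas (median 105), and supplied 1.82% of the score difference. Thymus had 145 to 153 CPM, above 6 of the 7 p53-high and all p53-low lymphomas. Of Cdkn1a, Mdm2 and Ccng1, the 3 markers of p53 output, Mdm2 therefore did not separate the groups, and "p53-high" and "p53-low" stand here for the rank of the score alone. With any 1 of the 6 left out of the score, 6 or 7 of the 7 lymphomas stayed in each group; each such score shares its other 5 genes with the one that ranked the lymphomas. In bulk RNA, a lower level can come from fewer cells with the transcript or from less of it in each cell, and these cannot be told apart.

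**Figure D2:**
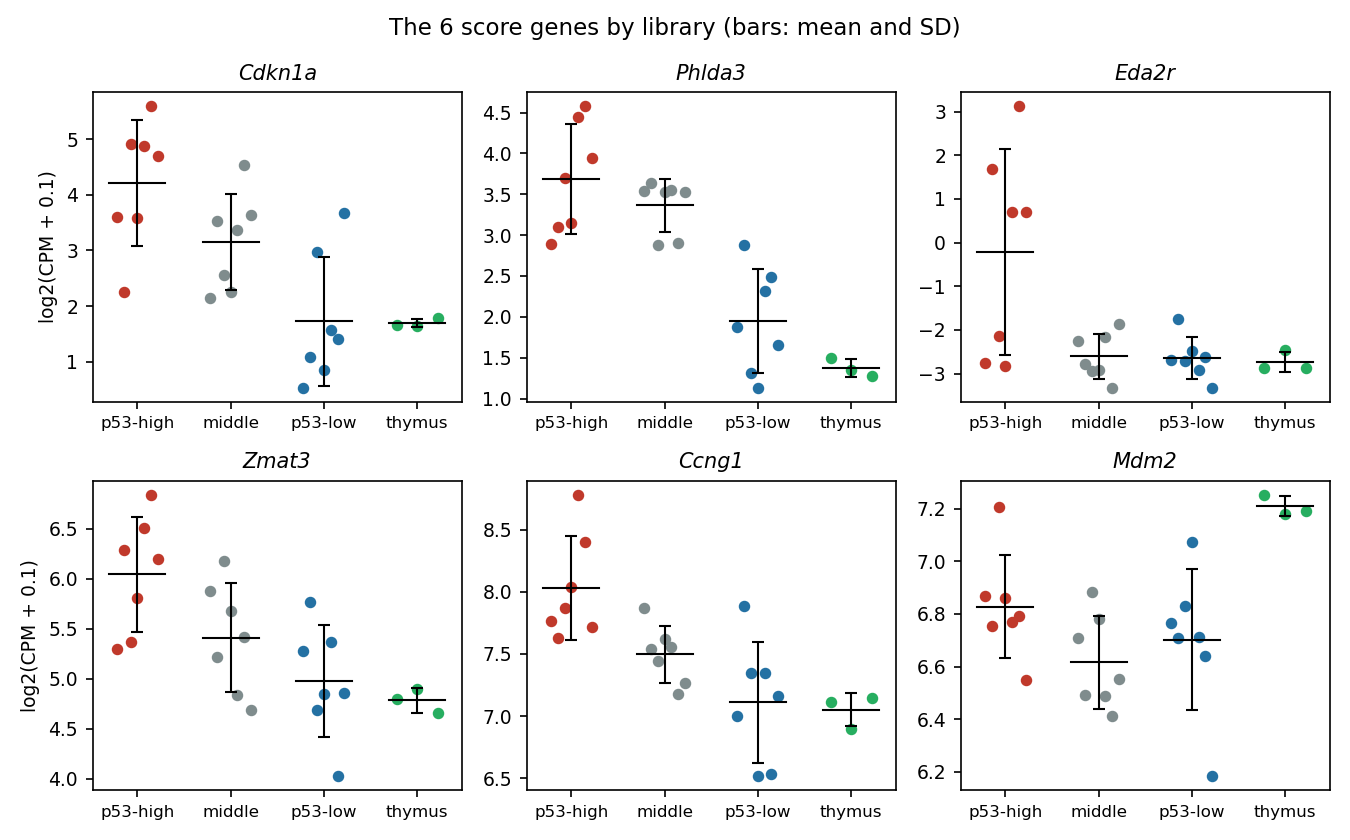
Levels of the 6 score genes in each library, as log2(CPM + 0.1) on the y axis, for p53-high, middle and p53-low lymphomas and thymus; points are libraries, and bars are the mean and SD. On this plain CPM scale Phlda3 is the 1 gene without overlap between p53-high and p53-low lymphomas, Eda2r is carried by 4 lymphomas, and Mdm2 lies below the thymus range of 145 to 153 CPM in 6 of the 7 p53-high lymphomas.

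Across the transcriptome, p53-high and p53-low lymphomas differed in no gene past the threshold. With edgeR's quasi-likelihood test and Benjamini-Hochberg adjustment, 0 of 11604 genes outside the score (0%) had an adjusted p under 0.05. Among all 11609 genes tested, the lowest adjusted p was 0.379, for Atp6v1c1, and every other one was above 0.99. At an unadjusted p under 0.05 there were 223 genes outside the score (1.92%), 126 higher (1.09%) and 97 lower (0.836%) in p53-high lymphomas. limma-voom likewise called 0 of these 11604 genes, and DESeq2 called 5 of 17244 outside the score (0.029%). The median log2 fold change of the 11604 genes was -0.02, and 45.4% of them had a positive one.

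Further p53 targets were read against that background. Of 81 target genes outside the score, 68 passed the filter on low counts and were tested; none passed the adjusted threshold. Of the 68, 42 (61.8%) had a positive log2 fold change, with a median of 0.06. At an unadjusted p under 0.05, 6 of 68 (8.82%) were higher and 0 lower in p53-high lymphomas, beside 1.09% and 0.836% of all genes. The 6 were Bbc3, Bax, Tnfrsf10b, Sesn2, Psrc1 and Slc19a2. The scores and these genes were measured in the same libraries, and these genes were not used to rank the lymphomas.

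The apoptosis list also holds the inhibitors Bcl2l1 (log2 fold change 0.14) and Triap1 (-0.02). Of its 18 tested targets, 16 (88.9%) had a positive log2 fold change, with a median of 0.22, beside 45.4% of all genes. At an unadjusted p under 0.05, 3 (16.7%) were higher and 0 lower, beside 1.09% and 0.836% of all genes. Bbc3 (chr7:16308393-16318205, GRCm38, here and below from GENCODE M21), which encodes the BH3-only death protein PUMA, had 13.5 to 27 CPM in p53-high lymphomas (median 18.2) and 2.72 to 14.8 CPM in p53-low lymphomas (median 8.82), here and below as CPM scaled by edgeR's TMM factors. In Bbc3, 6 p53-high lymphomas exceeded every p53-low lymphoma, and lymphoma 9, with 13.5 CPM, lay among the p53-low values. Its log2 fold change was 1.06 ± 0.32 (SE), with a 95% interval of 0.37 to 1.74 and an unadjusted p of 0.0050 by edgeR's test.

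Bax (chr7:45461697-45466898), which encodes the effector that opens the mitochondrial outer membrane, had 78.1 to 154 CPM in p53-high lymphomas (median 102) and 58.3 to 90.9 CPM in p53-low lymphomas (median 78.0). Lymphomas 22, 21, 30 and 14, with 154, 148, 114 and 102 CPM, lay above every p53-low lymphoma, and the other 3 within their range. The log2 fold change was 0.52 ± 0.17, with a 95% interval of 0.15 to 0.89. Tnfrsf10b, the receptor for the death ligand TRAIL, had 3.39 to 14.1 CPM in p53-high lymphomas and 0.622 to 5.73 CPM in p53-low lymphomas, a log2 fold change of 1.32 ± 0.46. Lymphomas 21, 12 and 22 led, with 14.1, 12.9 and 9.75 CPM, and the ranges overlapped.

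For other death genes the ranges of the groups overlapped widely. Pmaip1, which encodes the BH3-only protein NOXA, had 0.344 to 14.8 CPM in p53-high and 0.479 to 13.4 CPM in p53-low lymphomas. Its log2 fold change of 0.53 ± 0.99 turned negative without lymphoma 10, at -0.43. Fas, the death receptor for Fas ligand, had 9.53 to 61.9 CPM in p53-high and 1.23 to 26.5 CPM in p53-low lymphomas, and its highest value belonged to lymphoma 12. Trp53inp1, a cofactor that promotes phosphorylation of p53, had 329 to 556 CPM in p53-high lymphomas, inside the 72.4 to 1029 CPM of p53-low lymphomas. The log2 fold changes of Aen, Ei24 and Apaf1, a nuclease, an endoplasmic reticulum protein and the scaffold of the apoptosome, were 0.27 ± 0.26, 0.30 ± 0.19 and 0.17 ± 0.11.

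**Figure D3:**
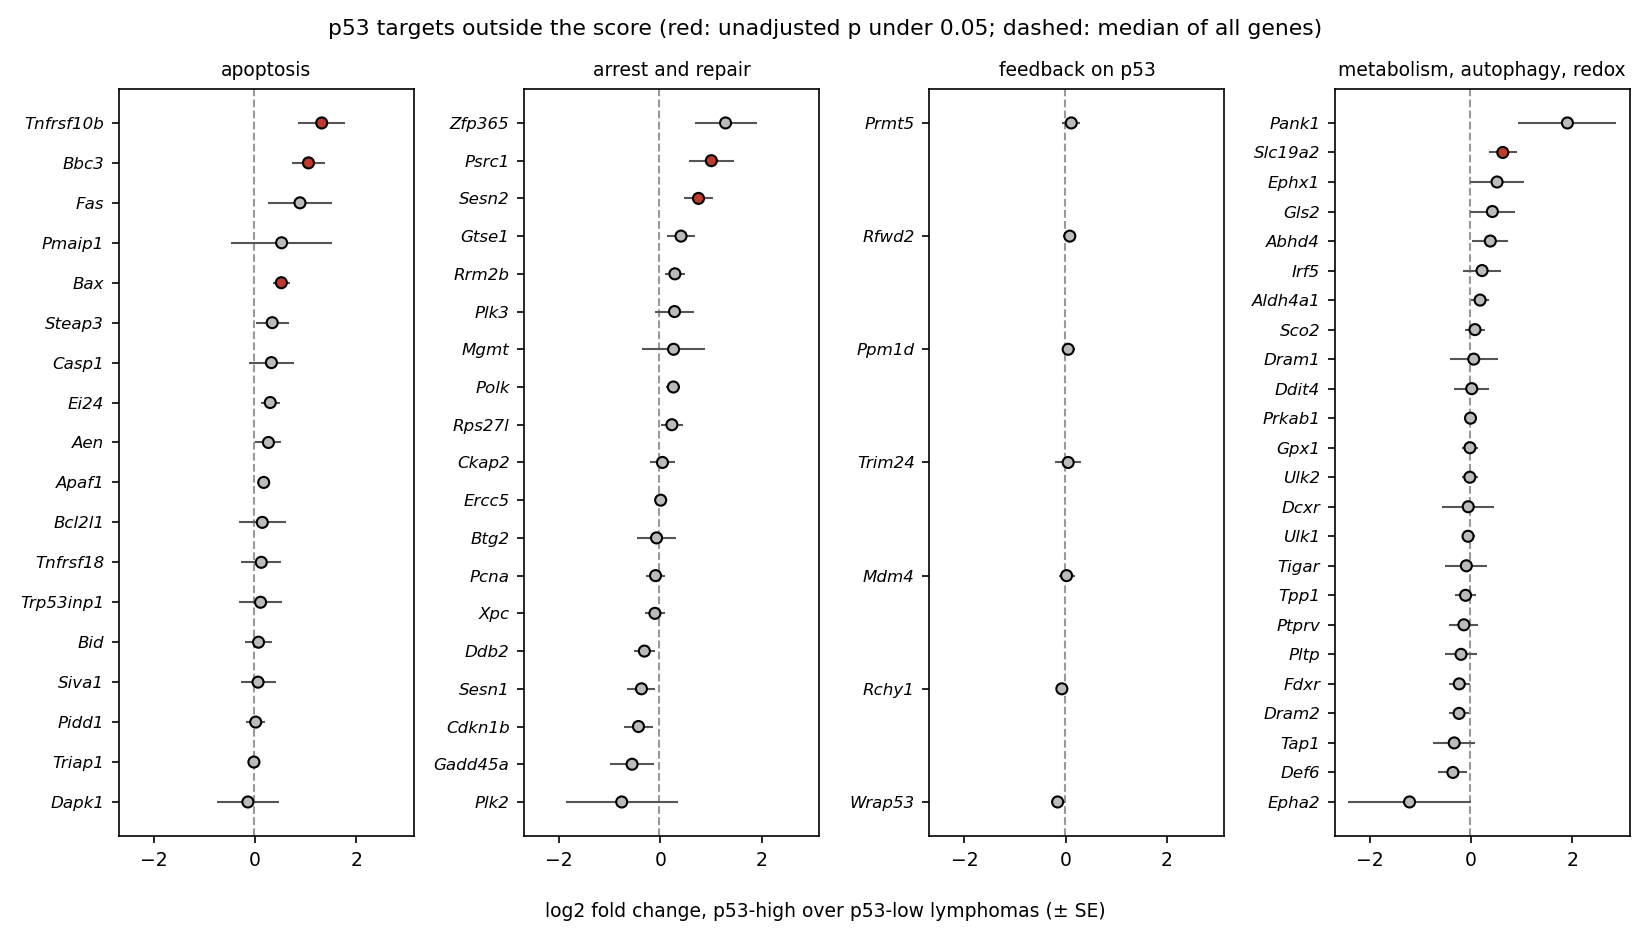
Log2 fold change of p53-high over p53-low lymphomas (x axis, ± SE) for the tested p53 targets outside the score, by role; a gene on 2 lists is drawn once. Red points mark an unadjusted p under 0.05, none passed after adjustment, and the dashed line is the median of all genes, -0.02. Apoptosis targets lie mostly to the right of the line, and targets of metabolism on either side.

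Among 19 tested targets that arrest the cycle or aid repair, 11 (57.9%) had a positive log2 fold change, beside 45.4% of all genes. Of the 19, 2 were higher and 0 lower at an unadjusted p under 0.05, beside 1.09% and 0.836% of all genes. Sesn2, a stress-induced inhibitor of the growth kinase mTORC1, had 8.12 to 34.7 CPM in p53-high lymphomas (median 27.4) and 10.1 to 18 CPM in p53-low lymphomas (median 13.3), a log2 fold change of 0.75 ± 0.29. Lymphomas 14, 22, 21 and 30 had 27.4 to 34.7 CPM and exceeded all p53-low lymphomas, while lymphoma 10, with 8.12 CPM, was below them all. Psrc1, which encodes a spindle protein, had 21.2 to 80.8 CPM in p53-high and 8.54 to 60.4 CPM in p53-low lymphomas. Zfp365, a zinc-finger gene of genome stability, had 14.5 to 34.1 CPM in p53-high and 0.103 to 16.5 CPM in p53-low lymphomas, with an unadjusted p of 0.0529 by edgeR's test. The log2 fold change of Btg2, an antiproliferative gene, was -0.08 ± 0.38, that of Cdkn1b, which encodes the inhibitor p27, was -0.43 ± 0.29, and that of Polk, a damage-bypass polymerase, was 0.26 ± 0.14.

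Among targets that feed back on p53, 0 of 9 tested had an unadjusted p under 0.05, beside 1.92% of all genes. So short a list cannot tell these shares apart. Ppm1d, which encodes the phosphatase WIP1, had 37.4 to 57.3 CPM in p53-high and 35.5 to 55.5 CPM in p53-low lymphomas, with a 95% interval of the log2 fold change of -0.23 to 0.33. Mdm4, the partner of Mdm2, had 261 to 429 CPM in p53-high and 198 to 404 CPM in p53-low lymphomas, with an interval of -0.32 to 0.36. Of 24 tested targets in metabolism, autophagy and redox control, 10 (41.7%) had a positive log2 fold change, beside 45.4% of all genes. At an unadjusted p under 0.05, 1 (4.17%) was higher, beside 1.09% of all genes. That one was the thiamine transporter gene Slc19a2, with 12.2 to 34.9 CPM in p53-high and 7.59 to 21.5 CPM in p53-low lymphomas. Pank1, which encodes a pantothenate kinase, had a log2 fold change of 1.9 ± 0.97; 5 p53-low lymphomas were under 1 CPM, and lymphoma 2 had 9.40 CPM.

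Levels of the p53 transcript itself overlapped almost fully between the groups. Trp53 (chr11:69580359-69591873) had 241 to 317 CPM in p53-high lymphomas (median 277) and 231 to 334 CPM in p53-low lymphomas (median 299). The log2 fold change was -0.08 ± 0.10, with a 95% interval of -0.28 to 0.13. Mutation of Trp53 and the amount or state of the protein were not measured here. Cdkn2a (chr4:89274471-89294653) had 4.97 to 74.5 CPM in p53-high lymphomas (median 8.52) and 1.03 to 76.6 CPM in p53-low lymphomas (median 4.65), against 0.118 to 0.323 CPM in thymus. Lymphomas 14 and 10 in the p53-high group, with 74.5 and 42.8 CPM, and lymphomas 7 and 32 in the p53-low group, with 76.6 and 75.7 CPM, stood above the rest. Lymphomas 34, 4, 20 and 31 of the p53-low group, with 1.03, 1.04, 1.79 and 4.65 CPM, lay below every p53-high lymphoma. The log2 fold change of -0.10 ± 1.02 had a 95% interval of -2.28 to 2.08. This symbol covers p16Ink4a and p19Arf, which cannot be told apart in these counts. None of 24 tested regulators of p53 had an unadjusted p under 0.05, beside 1.92% of all genes. The acetyltransferase gene Ep300 had a log2 fold change of 0.28 ± 0.19.

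**Figure D4:**
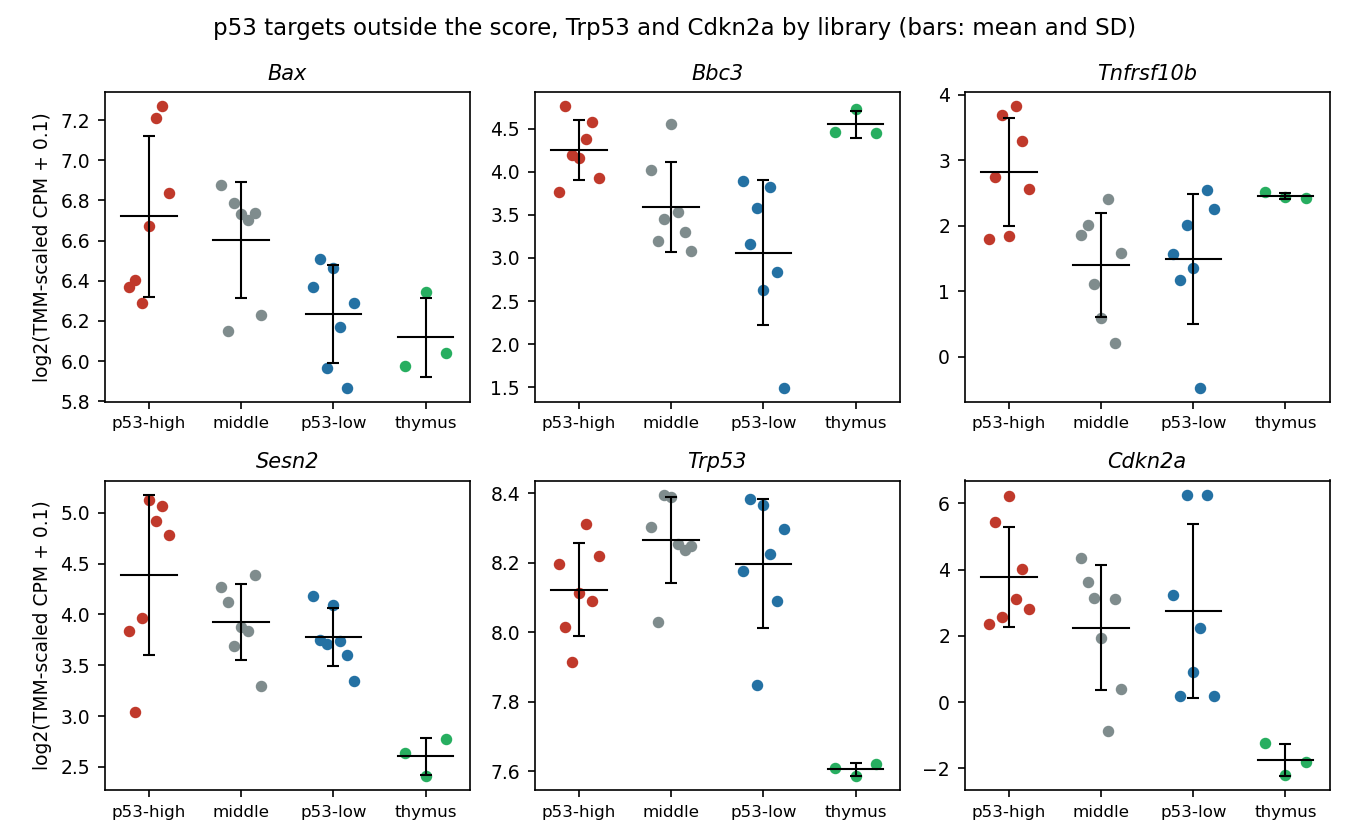
Levels of 4 p53 targets outside the score, of Trp53 and of Cdkn2a in each library, as log2(TMM-scaled CPM + 0.1) on the y axis, for p53-high, middle and p53-low lymphomas and thymus; points are libraries, and bars are the mean and SD. Bbc3 is highest in thymus and p53-high lymphomas, and Trp53 lies between 231 and 334 CPM in both lymphoma groups, above the thymus range of 192 to 197 CPM. Cdkn2a has high lymphomas in both groups, and 4 p53-low lymphomas lie below every p53-high one.

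The genes outside the score whose groups did not overlap were few, and none was on the p53 target lists. With so few, that absence says nothing about the targets. Atp6v1c1 (chr15:38661933-38692446), which encodes a subunit of the vacuolar proton pump, had 6.22 to 21.1 CPM in p53-high lymphomas (median 10.4) and 3.41 to 5.44 CPM in p53-low lymphomas (median 3.90). Its groups did not overlap, the log2 fold change was 1.72 ± 0.29, and edgeR's adjusted p was 0.379, with a range of 0.103 to 1.00 on leaving out each lymphoma. F2r (chr13:95601803-95618487), which encodes the thrombin receptor, had 1.21 to 7.89 CPM in p53-high and 8.86 to 21.1 CPM in p53-low lymphomas, a log2 fold change of -1.78 ± 0.42. Bloc1s4, which encodes a subunit of a complex for lysosome-related organelles, had 12.1 to 14.5 CPM in p53-high and 14.6 to 17 CPM in p53-low lymphomas. On the TMM scale these were the 3 genes without overlap, 1 higher (0.00862%) and 2 lower (0.0172%) of those tested, and Bloc1s4 was chosen after its values were seen.

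By DESeq2, the 5 genes outside the score past an adjusted p of 0.05 were Atp6v1c1, Bcas1 and Tnfsf4, higher in p53-high lymphomas, and F2r and Npy, lower. Tnfsf4 (chr1:161395409-161418410), which encodes the costimulatory OX40 ligand, had 0.372 to 7.93 CPM in p53-high lymphomas (median 2.58), 0 to 0.479 CPM in p53-low lymphomas (median 0.0982) and 0.251 to 0.355 CPM in thymus. Lymphomas 21, 22, 30 and 14 led, with 7.93, 4.42, 3.50 and 2.58 CPM, and lymphoma 9, with 0.372 CPM, lay within the p53-low range. DESeq2 gave it a log2 fold change of 4.05 ± 0.79 and an adjusted p of 0.00145; it missed the edgeR filter, and without that filter its edgeR adjusted p was 1.00. A slope on the score over all 21 lymphomas called 1 of 12797 genes outside the score (0.00781%), Tnfsf4, with an adjusted p of 0.00643 by edgeR's test. Bcas1 and Npy rested on few lymphomas: Bcas1 had 52.6 and 18.2 CPM in lymphomas 21 and 9 and at most 0.860 CPM in the other 12, and Npy, which encodes neuropeptide Y, had counts in 2 of the 14 lymphomas, 20 and 2, at 7.33 and 1.32 CPM.

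Proliferation and lineage gave no contrast past the threshold. Of 30 mitosis and G2-M genes, 0 had an unadjusted p under 0.05, with a median log2 fold change of 0.09, and likewise 0 of 29 replication genes, with 0.01, and 0 of 25 genes of double-strand break repair, with 0.05. Of all genes, 1.92% had such a p, and the median was -0.02. A positive log2 fold change was found in 73.3% of the mitosis and G2-M, 62.1% of the replication and 68% of the break repair genes. For comparison, it was found in 61.8% of the p53 targets outside the score and in 45.4% of all genes. Values for members with the smallest p were 0.19 ± 0.18 for the mitotic cyclin gene Ccnb1, 0.20 ± 0.20 for the topoisomerase gene Top2a, 0.46 ± 0.42 for the mitotic kinase gene Nek2, 0.40 ± 0.23 for the G1-S cyclin gene Ccne1 and 0.21 ± 0.11 for the break-sensor gene Rad50. Of 26 interferon response genes, 0 were higher (beside 1.09% of all genes) and 2 were lower (beside 0.836%) at an unadjusted p under 0.05, and 26.9% had a positive log2 fold change, beside 45.4% of all genes. Among them was the immunoproteasome gene Psmb9, with 0.637 to 2.91 CPM in p53-high and 0.828 to 6.80 CPM in p53-low lymphomas and a log2 fold change of -1.05 ± 0.45. Itm2a, a membrane protein gene of thymocyte selection chosen after its values were seen, had 128 to 442 CPM in p53-high and 57.7 to 215 CPM in p53-low lymphomas, and Lad1, which encodes a basement membrane protein, was chosen likewise and had at most 2 CPM in p53-high and 0.562 CPM in p53-low lymphomas.

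All 11 T-lineage identity genes were detected in both groups, with a summed level of 6764 to 9593 CPM in p53-high and 5156 to 9253 CPM in p53-low lymphomas, against 11727 to 12804 CPM in thymus, so that every lymphoma lay below every thymus library. Against thymus, 6 of the 11 fell in p53-high and 7 in p53-low lymphomas and 0 rose by edgeR's test, with median log2 fold changes of -0.95 in p53-high and -0.84 in p53-low lymphomas. Of all genes tested, 12.7% fell and 13.1% rose in p53-high lymphomas, and 10.2% fell and 11.4% rose in p53-low lymphomas. Thymocyte stage genes spread widely within both groups. The recombination gene Rag2 had 1.29 to 66.3 CPM in p53-high and 0.307 to 111 CPM in p53-low lymphomas, and the pre-T receptor gene Ptcra had 0.382 to 138 CPM in p53-high and 0.153 to 278 CPM in p53-low lymphomas. The interleukin 2 receptor gene Il2ra had 11.3 to 990 CPM in p53-high and 104 to 1519 CPM in p53-low lymphomas. Tumour genes of thymic lymphoma had 95% intervals across 0: the log2 fold change was -0.19 ± 0.23 for Myc, -0.90 ± 0.61 for Notch1, 0.44 ± 0.45 for Ikzf1 and -0.20 ± 0.26 for Bcl11b.

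Marker genes of other cell types had counts in both groups, which alone does not show that these cells were present. The filter on low counts was passed by 2 of 10 vessel, 3 of 11 epithelial and 7 of 12 natural killer genes. The summed level of 14 macrophage genes was 385 to 717 CPM in p53-high and 448 to 1141 CPM in p53-low lymphomas, against 197 to 281 CPM in thymus. Of these, 1 (7.14%) was higher at an unadjusted p under 0.05, beside 1.09% of all genes. It was the integrin gene Itgam, which reached 269 CPM in lymphoma 12 and at most 48.0 CPM in the other 13 lymphomas. The summed level of 11 fibroblast genes was 1745 to 2308 CPM in p53-high and 1216 to 2719 CPM in p53-low lymphomas. Of 10 tested, 1 was higher at an unadjusted p under 0.05, again beside 1.09% of all genes. It was the fibronectin gene Fn1, with a log2 fold change of 1.05 ± 0.48. Red cell precursor genes summed to 11.9 to 185 CPM in p53-high and 6.99 to 112 CPM in p53-low lymphomas, and 7 of 7 tested had a positive log2 fold change, with a median of 0.77 and no unadjusted p under 0.05, beside 45.4% of all genes with a positive one and a median of -0.02. In p53-high lymphomas the sums were 2.70 to 25.7 CPM for neutrophil genes, 4.92 to 48.0 CPM for thymic epithelium, 259 to 1470 CPM for natural killer cells, 5.83 to 28.2 CPM for B cells and 119 to 269 CPM for vessels. In p53-low lymphomas they were 1.21 to 16.7 CPM, 9.18 to 32.4 CPM, 107 to 1739 CPM, 4.22 to 49.7 CPM and 103 to 247 CPM for the same lists, so that the groups overlapped in each. Psmb11 of the epithelial list and Tek, Emcn and Cldn5 of the vessel list had at most 3 counts in each of the 14 lymphomas. The part of these cells in the levels of the p53 targets was not tested.

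Each group was also set against normal thymus, in 1 model over the 24 libraries with 13121 genes tested. Against thymus, 1714 genes rose (13.1%) and 1663 fell (12.7%) in p53-high lymphomas, and 1490 rose (11.4%) and 1332 fell (10.2%) in p53-low lymphomas. These totals of 3377 for p53-high and 2822 for p53-low lymphomas became 1929 and 1449 without thymus 1, 1521 and 1159 without thymus 2, and 2167 and 1682 without thymus 3. Both counts share the 3 thymus libraries, so each group's values are given side by side and no overlap is taken. Of 72 p53 targets outside the score, 13 (18.1%) rose and 12 (16.7%) fell in p53-high lymphomas, while 7 (9.72%) rose and 11 (15.3%) fell in p53-low lymphomas. Without thymus 1, 2 or 3, 7 rose each time and 8, 6 and 10 fell in p53-high lymphomas, and 4, 4 and 5 rose and 7, 7 and 8 fell in p53-low lymphomas.

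Trp53 rose in both groups against thymus, which had 192 to 197 CPM, with a log2 fold change of 0.52 ± 0.11 in p53-high lymphomas (edgeR adjusted p = 0.00206) and 0.60 ± 0.11 in p53-low lymphomas (edgeR adjusted p = 0.000954). Sesn2 rose by 1.96 ± 0.37 on the log2 scale in p53-high and by 1.20 ± 0.36 in p53-low lymphomas, and Aen rose by 1.23 ± 0.30 in p53-high and by 0.96 ± 0.29 in p53-low lymphomas. The p53-low calls were lost on leaving out a thymus library: the edgeR adjusted p of Sesn2 was 0.0684 without thymus 1 and 0.102 without thymus 2, and that of Aen was 0.0641 to 0.0876 without any one of the 3. Ei24, chosen after its values were seen, rose by 1.17 ± 0.23 in p53-high and by 0.87 ± 0.22 in p53-low lymphomas; the p53-low call was lost without thymus 2, at an edgeR adjusted p of 0.0533.

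Bax and Bbc3 lay on different sides of thymus. Bax rose in p53-high lymphomas, by 0.64 ± 0.21 on the log2 scale (edgeR adjusted p = 0.0313), and had 0.12 ± 0.21 in p53-low lymphomas. The p53-high call was lost without lymphoma 21, lymphoma 22 or any one thymus library, at edgeR adjusted p-values of 0.0597, 0.0592, and 0.118, 0.0521 and 0.0977 without thymus 1, 2 and 3. Bbc3, with 21.7 to 26.4 CPM in thymus, had -0.27 ± 0.38 in p53-high lymphomas and fell by 1.32 ± 0.36 in p53-low lymphomas (edgeR adjusted p = 0.0131, and 0.0735 without thymus 2). The direct test of p53-high against p53-low lymphomas, given above, did not pass for either gene.

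Several genes on the target lists were below thymus in both groups. Fas, at 76.8 to 104 CPM in thymus, fell by 2.30 ± 0.69 in p53-high lymphomas (edgeR adjusted p = 0.0173, and 0.0515 and 0.0729 without thymus 1 and 2) and by 3.19 ± 0.69 in p53-low lymphomas. Btg2 fell by 1.75 ± 0.39 in p53-high and by 1.67 ± 0.39 in p53-low lymphomas, and Cdkn1b fell by 1.77 ± 0.32 in p53-high and by 1.33 ± 0.32 in p53-low lymphomas. Of the tumour genes, Myc rose by 1.74 ± 0.35 in p53-high and by 1.92 ± 0.35 in p53-low lymphomas, and Bcl11b, a T-cell commitment factor, fell by 1.59 ± 0.30 in p53-high and by 1.38 ± 0.30 in p53-low lymphomas. For Btg2, Cdkn1b, Myc and Bcl11b each edgeR adjusted p was at most 0.00634, and no call was lost on leaving out a library. Cdkn2a rose by 6.73 ± 1.84 in p53-high lymphomas and by 6.82 ± 1.85 in p53-low lymphomas; the first call was lost without thymus 2 (edgeR adjusted p = 0.0636), and the second without thymus 2 or 3 (edgeR adjusted p = 0.07 and 0.0549).

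Chromosome-wide shifts in expression were compared because gains and losses of whole chromosomes are common in thymic lymphoma. For each lymphoma the median log2 ratio to thymus of the genes of each autosome was taken, over 8349 genes with at least 10 CPM in thymus. The number of autosomes with a median past 0.2 in either direction was 1.57 ± 0.98 in p53-high and 2.57 ± 3.46 in p53-low lymphomas (exact permutation test over 3432 splits, two-sided, p = 0.506; adjusted over 7 values, 0.970). Lymphomas 32 and 20, the lowest scores of all, had 8 and 7 such autosomes, while the other 5 p53-low lymphomas had 0 to 2 and the p53-high lymphomas 0 to 3. Of these autosomes, 6 in lymphoma 32 and 5 in lymphoma 20 were lowered. Past 0.3, lymphomas 32 and 20 had 1 autosome each, and lymphomas 12 and 30 of the p53-high group had 2 each. The SD over autosomes was 0.120 ± 0.051 in p53-high and 0.126 ± 0.060 in p53-low lymphomas.

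Chromosome 15, which carries Myc and Atp6v1c1, was past 0.2 in lymphomas 12, 30, 22 and 9 of the p53-high group, at 0.51, 0.49, 0.40 and 0.21, and in lymphomas 34, 32 and 20 of the p53-low group, at 0.52, 0.46 and 0.38. Chromosome 14 was past 0.2 in lymphomas 12 and 30 and in lymphomas 32 and 20. Group means were 0.20 ± 0.27 in p53-high and 0.19 ± 0.27 in p53-low lymphomas for chromosome 15, 0.13 ± 0.25 in p53-high and 0.09 ± 0.14 in p53-low lymphomas for chromosome 14, and -0.09 ± 0.06 in p53-high and -0.09 ± 0.08 in p53-low lymphomas for chromosome 11. For the first 10 Mb of chromosome 11 they were -0.28 ± 0.47 in p53-high and -0.27 ± 0.41 in p53-low lymphomas, with the lowest values in lymphomas 30 and 10 of the p53-high group, -0.996 and -0.937, and in lymphomas 4 and 31 of the p53-low group, -0.877 and -0.828. All 7 adjusted p-values of the exact permutation tests, total counts among them, were 0.970.

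**Figure D5:**
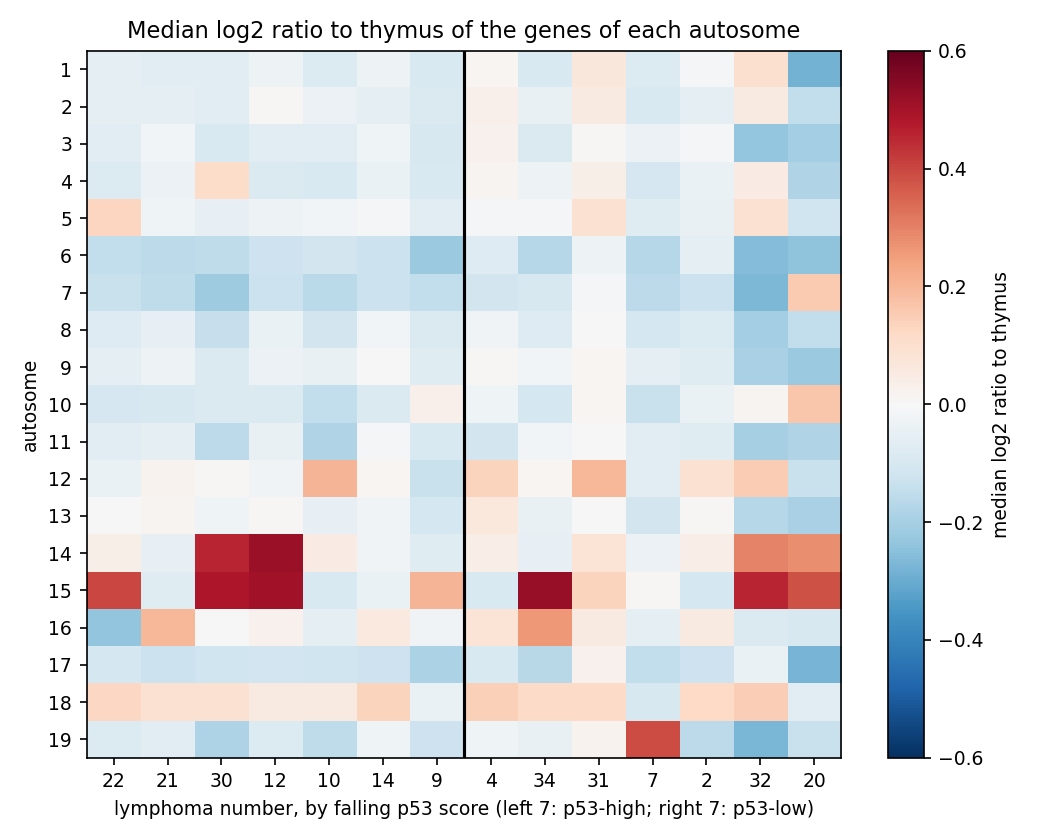
Median log2 ratio to thymus (colour) of the genes of each autosome (y axis) in the 7 p53-high lymphomas, left of the line, and the 7 p53-low lymphomas, right of it, by falling score (x axis). Raised chromosome 15 occurs on both sides, with 4 and 3 lymphomas past 0.2. Lymphomas 32 and 20 at the right edge have 8 and 7 autosomes past 0.2, of which 6 and 5 are lowered, and 1 each past 0.3.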

How the data were processed

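Raw counts were deposited as whole numbers for each gene symbol in 24 poly(A) RNA libraries, beside the authors' TPM values of the same libraries. Per the submitters' processing notes, cutadapt 1.9.1, HISAT2 2.0.1, SAMtools, HTSeq 0.6.1 and edgeR were used with build GRCm38.p6; for options and read strand, the sources used here give nothing. By the labels, all samples share 1 batch date.

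The score was computed from plain CPM. The test on counts was that of edgeR 4.0.16 in R 4.3.3 (TMM, filterByExpr, glmQLFit, glmQLFTest, Benjamini-Hochberg, threshold 0.05): p53-high against p53-low over 14 libraries, and each against thymus in a model of 4 groups. SE is the log2 fold change over the root of F. Alternatives used DESeq2 1.42.0, limma-voom (limma 3.58.1) and log2(TPM + 1), and the test was checked on simulated counts. Levels of other genes are CPM scaled by TMM. Without stated strand, overlapping genes cannot be told apart. No 2 libraries agreed within sampling noise (chi-square per degree of freedom at least 48.9). Of 21878 symbols, 20613 (94.2%) were placed with GENCODE M21.

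The groups, gene lists and tests were chosen with earlier results of these data known. Named genes were to be the 10 largest in each direction among those called by edgeR, with 10 CPM or more on average in the higher group (edgeR called none), fixed genes of the p53 pathway and of thymic lymphoma, and up to 4 members per list by smallest p. Others are marked as chosen after their values were seen, as were the genes called by DESeq2 or without overlap. Results for some genes are not reported here.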

Additional observations from a re-analysis of the deposited data

Results flagged for a closer look

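In 15 of 114 groups of 7 examined, 1 lymphoma lay farther from the next value than Dixon's 95% critical value, a share of the group's range, allows; for normally distributed values chance gives this in about 1 of 20 groups, the levels here were untransformed CPM, and all 15 were at the high end. Lymphoma 12 was the one apart in 5 of the 15, all in the p53-high group. Its Mdm2 was 147 CPM (next 117), its Mdm4 429 CPM (next 314), its Fas 61.9 CPM (next 12.9), its Polk 38.0 CPM (next 30.3) and its Itgam 269 CPM (next 35.8).

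Among the other p53-high lymphomas, Eda2r stood at 8.63 CPM in lymphoma 22 (next 3.12), Zfp365 at 34.1 CPM and Bcas1 at 52.6 CPM in lymphoma 21 (next 20.9 and 18.2), and Rag2 at 66.3 CPM in lymphoma 10 (next 23.1). Among p53-low lymphomas, Pmaip1 stood at 13.4 CPM and Itm2a at 215 CPM in lymphoma 2 (next 1.84 and 115), Ccne1 at 63.9 CPM and Atp6v1c1 at 5.44 CPM in lymphoma 34 (next 40.9 and 4.08), Npy at 7.33 CPM in lymphoma 20 (next 1.32) and Eda2r at 0.198 CPM in lymphoma 4 (next 0.0776).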

How the results depend on the processing

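No paired analysis was possible because the p53-high and p53-low lymphomas share no replicate number and share only number 2 with thymus. The count of 0 genes between the groups stayed 0 under 26 of 28 alternatives; DESeq2 gave 7, of which 2 were score genes, and the slope over 21 lymphomas 6, of which 5 were score genes; the ranking had used the score genes. Without 1 library at a time, genes called against thymus were 1521 to 3639 for p53-high and 1159 to 3734 for p53-low lymphomas; without thymus 1, 2 and 3 they were 1929, 1521 and 2167, and 1449, 1159 and 1682. Of 42 named genes tested, 35 kept their direction under all 28 settings; 3 passed the threshold in any.

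The sign of Cdkn2a turned with limma-voom (1.47), log2(TPM + 1) (0.93), log2(TPM + 0.1) (1.08) and without lymphomas 20 and 32 (0.28), and ran from -0.78 to 0.55 on leaving out 1 lymphoma. Mdm4 turned with the Ikzf1 set as covariate (-0.035), 5 against 5 (-0.040), the slope (-0.0175), without lymphomas 20 and 32 (-0.025) and on leaving out 1 (-0.084 to 0.11). Ppm1d turned without lymphomas 20 and 32 (-0.041) and on leaving out 1 (-0.031 to 0.13), Pmaip1 with the slope (-0.72), the TPM score (-0.027) and on leaving out 1 (-0.43 to 2.11), and Trp53inp1 with 5 against 5 (-0.20), the slope (-0.011), without lymphomas 20 and 32 (-0.10) and on leaving out 1 (-0.080 to 0.50). Btg2 ran from -0.34 to 0.16. Myc turned with the score without Cdkn1a (0.017) and without lymphomas 20 and 32 (0.034). The setting without lymphomas 20 and 32 was chosen after seeing the data. The cause was not tested.

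On leaving out 1 lymphoma, the p53-high minus p53-low difference was -0.0188 to 0.0067 for the SD over autosomes, -0.0393 to 0.0679 for chromosome 15, -0.0262 to 0.0727 for chromosome 14, -0.0114 to 0.0225 for chromosome 11 and -0.109 to 0.111 for its first 10 Mb. Autosomes past 0.3 differed by 0.143, and chromosome 11 by -0.0021 against the mean of all lymphomas. The depth of 15 to 36.6 M counts leaves genes under 1 CPM with few counts.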
